A study of Mus musculus with 10 samples.

Results

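The 6 solute carrier families that hold most of the plasma membrane transporters of amino acids, SLC1, SLC3, SLC6, SLC7, SLC38 and SLC43, were followed in the uterus of HSD17B1TG and WT mice. The members were all protein-coding genes of the expression table whose symbol is Slc followed by the number 1, 3, 6, 7, 38 or 43, the letter a and a member number. They were 52 of the 29268 genes in the table, with 7 in SLC1, 2 in SLC3, 16 in SLC6, 13 in SLC7, 11 in SLC38 and 3 in SLC43.

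Amino acids cross the cell membrane only through carrier proteins, which differ in the amino acids they take and in what drives them. Sodium-coupled carriers of SLC1, SLC6 and SLC38 concentrate amino acids in the cell, exchangers of SLC7 trade one amino acid for another, and the SLC43 carriers let large neutral amino acids pass by facilitated diffusion. Several SLC7 proteins reach the membrane only as a light chain bound to a heavy chain of SLC3. In the uterus these carriers are best known for the supply of the endometrial lining and of the luminal fluid around implantation. The families also hold carriers of other small molecules, such as noradrenaline, taurine and creatine.

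HSD17B1TG mice are FVB/N mice that carry a human *HSD17B1* cDNA in the heterozygous state. The transgene is driven in all tissues by a chicken beta actin promoter with a CMV enhancer, and its product turns estrone into estradiol. Uterine RNA of 5 HSD17B1TG females, named here TG1 to TG5, and of 5 wild-type females (WT1 to WT5) was sequenced, all at the age of 4 months and with 1 library per mouse. HSD17B1TG females have no estrous cycle, and the methods of the study describe the histological WT uteri as taken at random phases of the cycle, so genotype and cycle phase cannot be told apart here. The table does not count the human transgene, and mouse *Hsd17b1* (0.992 ± 0.291 FPKM in HSD17B1TG and 0.918 ± 0.375 in WT, SD, n = 5 each) is no check of the genotype.

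Between 14817228 and 23271988 reads were counted on genes per mouse. The uterine label was checked with *Esr1*, *Pgr*, *Hoxa10* and *Hoxa11*, which were all expressed in all 10 mice. *Esr1* was at 27.4 to 39.2 FPKM (fragments per kilobase of gene length, scaled to the depth of the library) in HSD17B1TG and at 25.7 to 44.0 in WT, whereas *Hoxa10* and *Hoxa11* were called down. The makeup of the pieces of uterus differed between mice. The summed level of 5 smooth muscle markers ran from 698 to 5792 FPKM in HSD17B1TG and from 323 to 4215 in WT, highest in TG1 and WT4. The 5 epithelium markers summed to 541 to 2469 FPKM in HSD17B1TG and 349 to 1373 in WT, and the 5 stroma markers to 455 to 1804 and 1226 to 1751. No marker of these 3 lists was at 0 in any mouse. In whole tissue, fewer cells of a type and less RNA per cell cannot be told apart.

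Most of the carrier RNA of the uterus came from a few members. A mean above 1 FPKM in either group was reached by 29 of the 52 members, and a mean above 10 FPKM by 9. The first in order of level was *Slc1a5*, which encodes the sodium-dependent glutamine and small neutral amino acid exchanger ASCT2, with 57.6 ± 29.1 FPKM in the HSD17B1TG mice and 34.6 ± 10.7 in the WT mice (SD, n = 5 each). *Slc38a2*, which encodes the sodium-coupled neutral amino acid carrier SNAT2, followed with 38.9 ± 5.30 and 33.2 ± 5.01 FPKM. The next were *Slc3a2*, the heavy chain known as CD98 or 4F2hc, with 26.9 ± 1.63 and 29.8 ± 3.54 FPKM, and *Slc38a10*, whose product is less well characterised, with 19.0 ± 3.56 and 21.99 ± 1.03 FPKM. *Slc6a6*, the taurine transporter, came after them with 12.4 ± 1.48 and 17.3 ± 3.86 FPKM.

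At the other end, 11 members had a mean below 0.1 FPKM in both groups, and 16 of the 52 had too few counts to be tested. The latter included *Slc3a1*, the heavy chain rBAT, at 0.115 to 0.699 FPKM over all mice, and its partner *Slc7a9*, with 0 to 2 counts per mouse. In the library of lowest depth, 3 counts equal 0.202 CPM, a level below which presence and absence cannot be separated.

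Added over all 52 members, the carriers did not separate the genotypes. The sum was 231.6 to 273.3 FPKM in HSD17B1TG, with a mean of 260.8 ± 16.9 (SD, n = 5), and 239.3 to 286.3 FPKM in WT, with a mean of 260.4 ± 18.9. Within this sum the mean of SLC1 was 64.8 ± 30.03 FPKM in HSD17B1TG and 46.3 ± 7.72 in WT, and the mean of SLC7 was 37.5 ± 7.96 and 50.4 ± 7.10. The ranges of both families overlapped between the genotypes (35.3 to 109.5 against 37.5 to 54.4 FPKM in SLC1, 26.7 to 46.0 against 44.7 to 62.6 in SLC7).

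**Figure D1:**
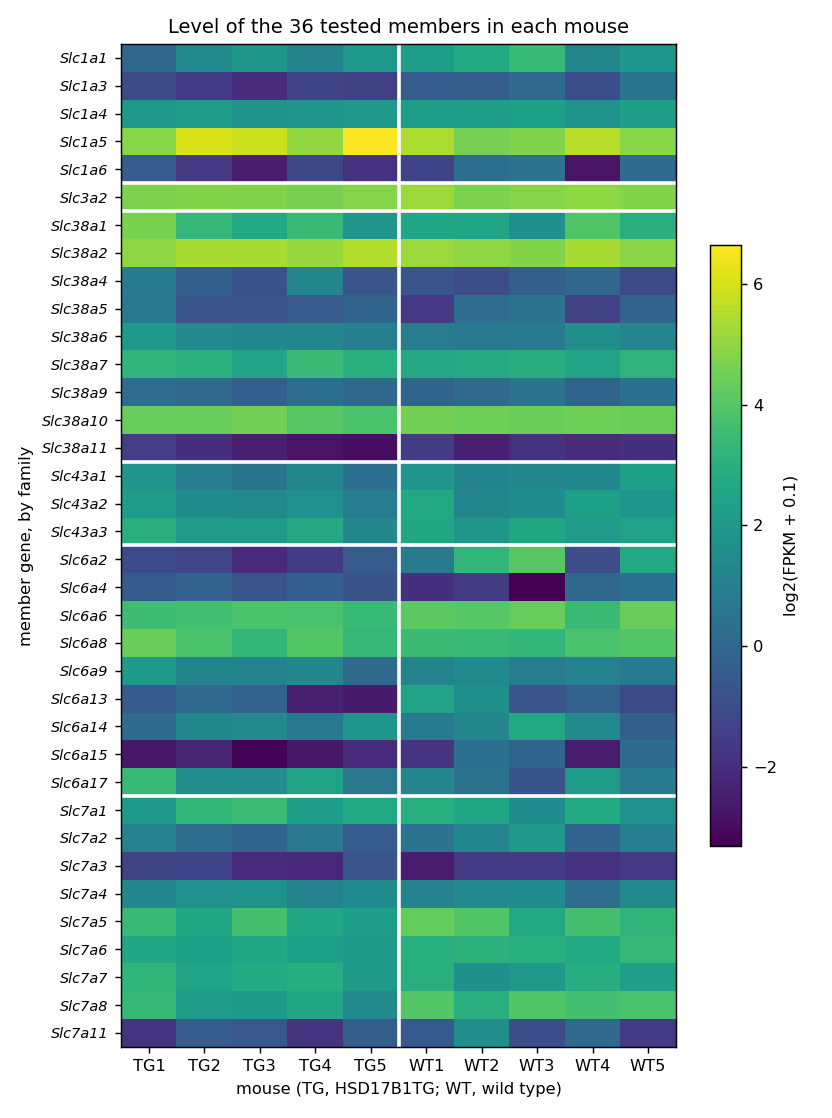
Level of the 36 tested members (rows, by family) in the 5 HSD17B1TG and 5 WT mice (columns), coloured by log2(FPKM + 0.1). *Slc1a5*, *Slc38a2*, *Slc3a2* and *Slc38a10* were high in every mouse, and *Slc6a2* was high in WT2, WT3 and WT5 only.

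The comparison of HSD17B1TG with WT asks which carriers differ in a uterus exposed to the estradiol-producing enzyme. A gene was called when edgeR's adjusted p-value was under 0.05, the fold change was over 2 and the mean FPKM was over 1 in either group. None of the 36 tested members was called up, against 2.16% of all 16993 genes tested, and 2 were called down, *Slc6a2* and *Slc7a8*, against 2.08% of all genes. By the adjusted p-value alone, 4 members were lower in HSD17B1TG, the other two being *Slc7a6* and *Slc1a3*, and none was higher. The shares over all genes were 2.81% lower and 3.34% higher. At an unadjusted p-value under 0.05, 8 of the 36 members were lower and 0 higher, against 11.4% and 14.7% of all genes tested. The genotypes did not overlap in *Slc1a3* and *Slc7a6*, both lower, and in no member were all HSD17B1TG mice above all WT mice. Over all genes such a separation was seen in 2.65% downwards and in 4.04% upwards.

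Most members did not pass the test, and their fitted differences went both ways. Over all tested members, the log2 fold change was positive in 15 and negative in 21 of the 36, with a median of -0.17 against 0.00 over all genes tested, and the median size of the difference was 0.48 against 0.35. The fitted difference was within 2-fold in 27 members (83.2% of all genes tested), over 2-fold higher in HSD17B1TG in 1 (9.57% of all genes) and over 2-fold lower in 8 (7.19% of all genes). Some of these 8 were at low levels, such as *Slc1a6* (2 to 46 counts per mouse) and *Slc6a15* (1 to 170), where a fitted difference is imprecise. By family, the median log2 fold change was -1.09 over 5 members of SLC1, -0.65 over 9 of SLC7, -0.29 over 9 of SLC6, -0.46 over 3 of SLC43 and 0.22 over 9 of SLC38.

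**Figure D2:**
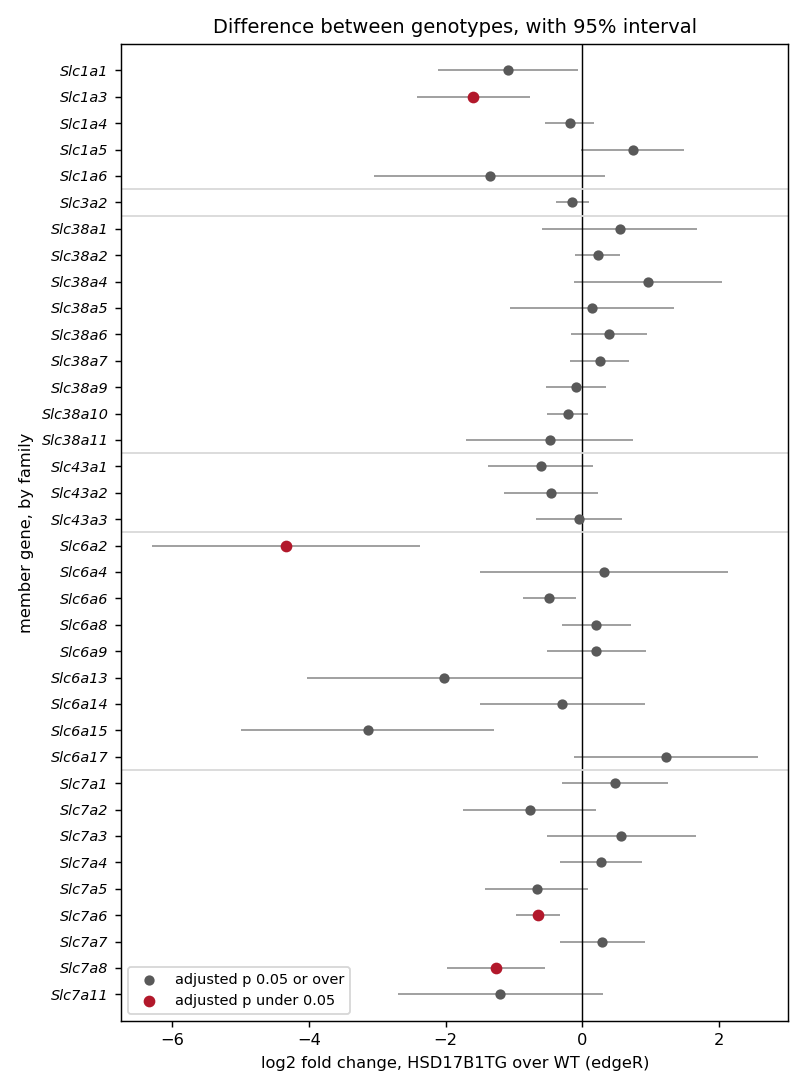
Log2 fold change of HSD17B1TG over WT (x axis) with its 95% interval for the 36 tested members (y axis, by family), from edgeR. Red points mark the 4 members with an adjusted p-value under 0.05, all left of 0, and SLC38 is the family whose median lies right of 0 (0.22).

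The light chains that pair with *Slc3a2* held 2 of the 4 members that passed the test, *Slc7a8* and *Slc7a6*. *Slc7a8* encodes LAT2, an exchanger of small and large neutral amino acids. It was at 9.89, 4.43, 4.26, 5.98 and 2.64 FPKM in TG1 to TG5 and at 15.9, 7.68, 15.3, 12.6 and 13.7 FPKM in WT1 to WT5. Every HSD17B1TG mouse except TG1 was below every WT mouse, and TG1 was above WT2 only. The fitted level was 2.41-fold lower in HSD17B1TG (log2 fold change -1.27, SE 0.33, adjusted p = 0.0471 in edgeR). The gene (ENSMUSG00000022180) lies on chromosome 14 from 54722209 to 54781946 (GRCm38). Leaving out any mouse other than TG1 or WT4 raised the adjusted p-value of edgeR over 0.05, to between 0.0624 without WT2 and 0.109 without TG2, with log2 fold changes of -1.43 to -1.09.

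*Slc7a6* encodes y+LAT2, which exports cationic amino acids in exchange for neutral ones and sodium. Its values were 6.07, 5.13, 5.95, 4.91 and 4.23 FPKM in TG1 to TG5 and 8.06, 8.59, 7.73, 6.79 and 9.93 FPKM in WT1 to WT5. All 5 HSD17B1TG mice were below all 5 WT mice. The decrease was smaller than in *Slc7a8*, 1.57-fold (log2 fold change -0.65, SE 0.15, adjusted p = 0.0345 in edgeR), and so did not reach the fold change of a call. The adjusted p-value of edgeR stayed under 0.05 without TG1, TG3 or WT4 and lay between 0.0610 (without WT1) and 0.0855 (without TG2) when another mouse was left out.

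The promoters of these carriers are shown because both genes were lower in HSD17B1TG, and the promoter of *Slc1a3*, which also fell, is set beside them. The sequences are from RefSeq (GRCm38.p6), run 5′ to 3′ on the strand of the gene from 250 bases before to 50 after its start, and mark in capitals GGGCGG, the core of the GC box. They are chr14:54781837-54782136 (minus strand) for *Slc7a8*, chr8:106168604-106168903 (plus strand) for *Slc7a6*, which has a further start close by, and chr15:8710758-8711057 (minus strand) for *Slc1a3*.
Slc7a8: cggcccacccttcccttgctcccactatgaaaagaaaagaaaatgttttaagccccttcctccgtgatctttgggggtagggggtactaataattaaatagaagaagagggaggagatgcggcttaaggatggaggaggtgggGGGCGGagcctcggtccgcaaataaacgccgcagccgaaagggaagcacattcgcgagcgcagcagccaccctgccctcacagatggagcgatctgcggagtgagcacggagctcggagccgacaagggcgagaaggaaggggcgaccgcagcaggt
Slc7a6: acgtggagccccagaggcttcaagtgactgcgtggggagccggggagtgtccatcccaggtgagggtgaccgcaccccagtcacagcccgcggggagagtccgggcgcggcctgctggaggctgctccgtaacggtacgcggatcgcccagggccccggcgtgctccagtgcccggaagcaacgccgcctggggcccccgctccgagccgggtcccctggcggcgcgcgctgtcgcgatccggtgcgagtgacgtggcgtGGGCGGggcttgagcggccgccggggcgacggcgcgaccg
Slc1a3: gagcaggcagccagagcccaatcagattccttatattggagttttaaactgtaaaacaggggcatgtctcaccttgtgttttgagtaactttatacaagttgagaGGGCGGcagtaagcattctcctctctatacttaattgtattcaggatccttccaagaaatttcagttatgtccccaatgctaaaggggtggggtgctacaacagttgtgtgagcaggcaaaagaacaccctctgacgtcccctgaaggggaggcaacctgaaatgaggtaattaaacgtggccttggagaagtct

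Each of the 3 promoters held 1 GGGCGG on either strand, a run of letters found in 35.7% of the 32851 promoters of the RefSeq table and in 31 of the 58 promoters that it holds for 37 members. The GC content was 58.0% in *Slc7a8*, 75.7% in *Slc7a6* and 45.3% in *Slc1a3*. None of the 3 held TGATGNAA, the core of the site bound by ATF4 under amino acid shortage, or CACGTG, the E-box of MYC and TFEB. TGATGNAA stood in 3.97% of all promoters and in 4 of the 58, those of *Slc1a4*, *Slc7a7* and *Slc7a11*, and CACGTG in 7.15% of all promoters and in 6 of the 58. The palindromic estrogen response element was found in 0.07% of all promoters and in none of the 58. A match in this window is a description of its letters and not of binding.

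**Figure D3:**
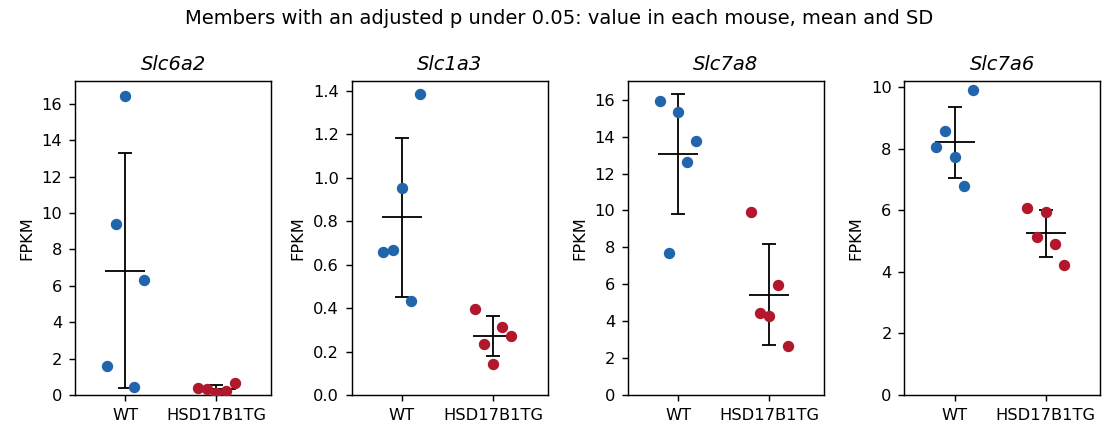
FPKM (y axis, from 0) of the 4 members with an adjusted p-value under 0.05 in each WT (blue) and HSD17B1TG (red) mouse, with the mean and SD (n = 5) in black. In *Slc1a3* and *Slc7a6* all red points lie below all blue ones, and in *Slc6a2* the WT points run from 0.408 to 16.4 FPKM.

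The other light chains did not pass the test. *Slc7a5* encodes LAT1, which takes up leucine and other large neutral amino acids. It was at 10.5, 5.999, 12.9, 6.02 and 4.56 FPKM in TG1 to TG5 and at 19.4, 15.2, 6.59, 13.1 and 9.13 FPKM in WT1 to WT5, with a log2 fold change of -0.67 (SE 0.34, adjusted p = 0.241 in edgeR). The groups overlapped, since WT3 and WT5 lay below TG1 and TG3. *Slc7a7*, the y+LAT1 of epithelia and macrophages, had a log2 fold change of 0.29 (95% interval -0.33 to 0.92, adjusted p = 0.549 in edgeR), with 4.23 to 9.18 FPKM in HSD17B1TG and 3.10 to 7.50 in WT. *Slc7a11*, the cystine and glutamate exchanger xCT, was at 0.183 to 0.674 FPKM in HSD17B1TG. Its WT values were 0.570, 2.93, 0.414, 0.981 and 0.224 FPKM in WT1 to WT5, and its log2 fold change was -1.20 with all mice (SE 0.68, adjusted p = 0.293 in edgeR) and -0.31 without WT2. *Slc7a10*, the Asc-1 carrier of small neutral amino acids, had 0 to 22 counts per mouse and was not tested.

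The heavy chain itself differed little. *Slc3a2* was at 25.9, 28.2, 27.5, 24.6 and 28.4 FPKM in TG1 to TG5 and at 35.2, 25.9, 28.8, 31.0 and 27.9 FPKM in WT1 to WT5, with a log2 fold change of -0.15 and a 95% interval of -0.39 to 0.10 (adjusted p = 0.431 in edgeR). An interval of this width leaves a decrease of up to 0.39 on the log2 scale. It overlapped the 95% interval of *Slc7a6* (-0.98 to -0.33) but not that of *Slc7a8* (-1.99 to -0.55). Whether the heavy chain differed less than these light chains was not tested. The 6 light chains added together reached 16.3 to 35.8 FPKM in HSD17B1TG and 34.7 to 51.4 in WT, an overlap of TG1 with WT3 alone. *Slc7a5* and *Slc7a8* together, a pair chosen after their values were seen, reached 7.20 to 20.4 FPKM in HSD17B1TG and 21.9 to 35.3 in WT. No test was made on these sums.

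**Figure D4:**
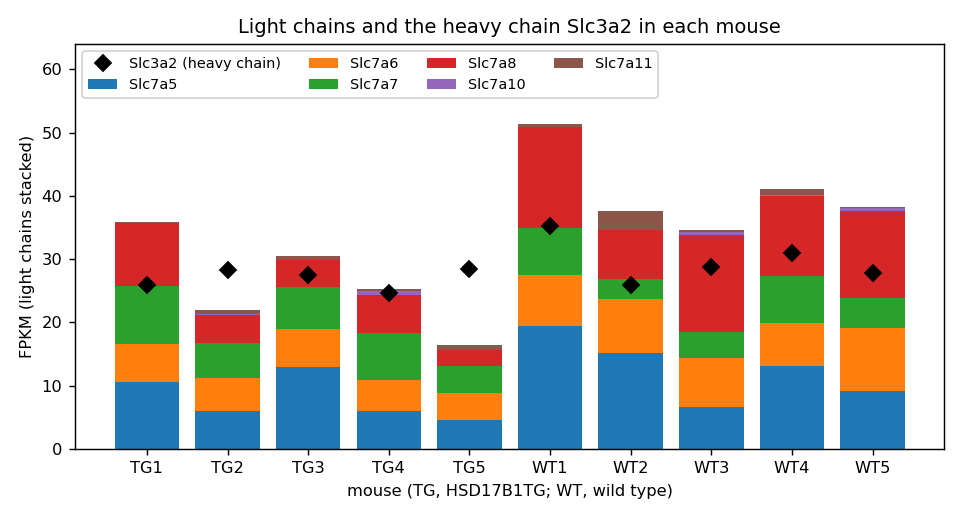
Stacked FPKM of the 6 light chains (coloured bars) and FPKM of the heavy chain *Slc3a2* (black diamonds) in each mouse. The diamonds lie between 24.6 and 35.2 FPKM in all mice, while the stacks reach 16.3 to 35.8 FPKM in HSD17B1TG and 34.7 to 51.4 in WT, and the red *Slc7a8* segment is 2.64 to 9.89 FPKM high in HSD17B1TG and 7.68 to 15.9 in WT.

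The light chains of the other heavy chain, *Slc3a1*, were near the limit of detection. *Slc7a13* had 0 to 4 counts per mouse and *Slc7a9* 0 to 2, and no fold change was computed. Of the SLC7 carriers that need no heavy chain, *Slc7a3*, which encodes the cationic amino acid carrier CAT3, had the highest log2 fold change of the family, 0.57 (SE 0.50, adjusted p = 0.505 in edgeR), at 0.115 to 0.526 FPKM in HSD17B1TG and 0.0752 to 0.246 in WT. The more abundant arginine carrier *Slc7a1* (CAT1), named after its values were seen, was at 4.00 to 11.3 FPKM in HSD17B1TG and 2.77 to 7.51 in WT, with a log2 fold change of 0.48 (95% interval -0.30 to 1.25).

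In SLC1, the family of glutamate and neutral amino acid carriers, *Slc1a3* fell. It encodes GLAST, a high-affinity glutamate transporter that is best known from glial cells. It was at 0.396, 0.236, 0.143, 0.312 and 0.271 FPKM in TG1 to TG5 and at 0.657, 0.666, 0.951, 0.431 and 1.38 FPKM in WT1 to WT5. All HSD17B1TG mice were below all WT mice, of which WT4 was the nearest. The fitted level was 3.02-fold lower (log2 fold change -1.59, SE 0.38, adjusted p = 0.0388 in edgeR), but with both means below 1 FPKM it was not called. The gene (ENSMUSG00000005360) lies on chromosome 15 from 8634124 to 8710764 (GRCm38). Without a single mouse the log2 fold change was -1.77 to -1.34, and the adjusted p-value of edgeR stayed under 0.05 without TG1, TG3 or WT4 but reached 0.0593 (without WT1) to 0.0921 (without TG2) otherwise. On log2(FPKM + 1), a scale that flattens low values, it was 0.0501 in limma.

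*Slc1a5* had the highest log2 fold change of SLC1, but it did not pass the test. Its values were 29.2, 66.8, 57.9, 33.0 and 101.1 FPKM in TG1 to TG5 and 43.6, 24.1, 27.3, 48.4 and 29.4 FPKM in WT1 to WT5. TG2, TG3 and TG5 were above every WT mouse, and TG1 and TG4 lay within the WT range. The log2 fold change was 0.74 (95% interval -0.02 to 1.49, adjusted p = 0.203 in edgeR). Its relative *Slc1a4* (ASCT1), named after its values were seen, was nearly level, at 3.53 to 4.41 FPKM in HSD17B1TG and 3.31 to 4.94 in WT. *Slc1a1* (EAAC1), likewise outside the rule for named genes, had a log2 fold change of -1.09 (SE 0.46, adjusted p = 0.169 in edgeR), with 0.887 to 3.85 FPKM in HSD17B1TG and 2.28 to 10.8 in WT. In the GENCODE M21 annotation of *Slc1a1*, 31.9% of the exon bases are shared with a gene on the opposite strand. Reads of that gene cannot be told apart without a stranded count. The share in the gene model used for the counts was not determined.

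SLC6 held the largest difference of all members. *Slc6a2* encodes the noradrenaline transporter NET, which returns noradrenaline to sympathetic nerve endings and is no amino acid carrier. It was at 0.375, 0.329, 0.127, 0.237 and 0.633 FPKM in TG1 to TG5, and at 1.604, 9.40, 16.4, 0.408 and 6.33 FPKM in WT1 to WT5. All HSD17B1TG mice were low, while the WT mice spread over 40.3-fold, and WT4 was below TG5. The fitted level was 20.3-fold lower in HSD17B1TG (log2 fold change -4.34, SE 0.89, adjusted p = 0.0274 in edgeR). The gene (ENSMUSG00000055368) lies on chromosome 8 from 92960079 to 93001667 (GRCm38).

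The size of this difference depended on single mice and on the scale. Without 1 mouse the log2 fold change of *Slc6a2* ran from -3.74 (without WT3) to -4.68 (without TG5), and it was -4.64 without WT4. With all mice it was -4.33 both in DESeq2 (adjusted p = 1.32e-06) and in edgeR with size factor normalization (adjusted p = 0.0273). The adjusted p-value of edgeR was under 0.05 without TG1, TG3, WT1 or WT4 and between 0.0578 (without WT3) and 0.0737 (without TG2) without any other mouse. With limma the log2 fold change was -4.01 with voom weights (adjusted p = 0.0555), -2.04 on log2(FPKM + 1) (adjusted p = 0.0616) and -3.25 on log2(FPKM + 0.1) (adjusted p = 0.0446), the latter scales understating the change of a gene at a low level.

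A further 2 SLC6 members with large differences shared the spread among WT mice but did not pass the test, and are named after their values were seen. *Slc6a15*, a carrier of branched-chain amino acids and proline, was at 0.00686 to 0.141 FPKM in HSD17B1TG and at 0.194, 1.15, 0.824, 0.0687 and 1.02 FPKM in WT1 to WT5 (log2 fold change -3.14, SE 0.84, adjusted p = 0.0514 in edgeR). WT4 was the lowest WT mouse here too. *Slc6a13*, a carrier of GABA and taurine, was at 0.0664 to 0.970 FPKM in HSD17B1TG and at 5.53, 3.03, 0.512, 0.750 and 0.370 FPKM in WT1 to WT5 (log2 fold change -2.02, SE 0.91, adjusted p = 0.190 in edgeR), high in WT1 and WT2 only.

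The taurine transporter *Slc6a6* was at 11.8, 12.2, 14.0, 13.8 and 10.4 FPKM in TG1 to TG5 and at 17.7, 16.6, 20.3, 11.2 and 20.8 FPKM in WT1 to WT5. Each WT mouse but WT4 was above all HSD17B1TG mice, and the log2 fold change was -0.48 (SE 0.17, adjusted p = 0.110 in edgeR). Without WT4 the log2 fold change was -0.61 and the adjusted p-value 0.0181 in edgeR. *Slc6a17*, a carrier of synaptic vesicles for proline and other neutral amino acids, was the member with the highest log2 fold change, 1.23 (SE 0.61, adjusted p = 0.232 in edgeR). It was at 10.9, 2.94, 2.90, 5.25 and 1.44 FPKM in TG1 to TG5 and at 2.26, 1.27, 0.482, 4.36 and 1.61 FPKM in WT1 to WT5, highest in TG1 among the first and in WT4 among the second. *Slc6a14*, the broad carrier ATB0,+ of epithelia, showed no difference that could be detected, with 1.02 to 3.72 FPKM in HSD17B1TG, 0.711 to 6.63 in WT and a log2 fold change of -0.29 whose 95% interval ran from -1.50 to 0.91. The sign of this difference turned without WT3 (0.32) and with voom weights (0.14).

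SLC38, the sodium-coupled neutral amino acid carriers, had 6 of its 9 tested members on the positive side, and none passed the test. *Slc38a2* was at 32.0, 42.0, 40.8, 34.9 and 44.9 FPKM in TG1 to TG5 and at 35.2, 31.9, 27.9, 40.8 and 30.3 FPKM in WT1 to WT5 (log2 fold change 0.22, 95% interval -0.10 to 0.55, adjusted p = 0.368 in edgeR). It varied little, by 1.40-fold within HSD17B1TG and 1.46-fold within WT. *Slc38a4*, the SNAT4 of liver and placenta, had the highest log2 fold change of the family, 0.96 (SE 0.49, adjusted p = 0.241 in edgeR), carried by 1.70 FPKM in TG1 and 2.26 in TG4, since TG2, TG3 and TG5 lay within the WT range of 0.367 to 0.886. *Slc38a11* had the lowest, -0.48 (SE 0.55, adjusted p = 0.627 in edgeR), at 0.0298 to 0.248 FPKM in HSD17B1TG and 0.0853 to 0.245 in WT. *Slc38a10*, with 14.3 to 23.6 FPKM in HSD17B1TG against 21.2 to 23.8 in WT, had a log2 fold change of -0.21 (adjusted p = 0.349 in edgeR). The arginine sensor of the lysosome, *Slc38a9*, named after its values were seen, was level at 0.694 to 1.13 FPKM in HSD17B1TG and 0.826 to 1.31 in WT.

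In SLC43 none of the 3 members passed the test. *Slc43a1*, the facilitative carrier LAT3 of branched-chain and other large neutral amino acids, was at 1.14 to 3.59 FPKM in HSD17B1TG and 2.18 to 4.93 in WT (log2 fold change -0.61, SE 0.35, adjusted p = 0.298 in edgeR). *Slc43a3*, which carries purine bases rather than amino acids, was at 2.33 to 7.64 and 3.84 to 6.195 FPKM. Its log2 fold change was -0.04 (95% interval -0.68 to 0.59), and its sign changed when TG2, TG5 or WT3 was left out.

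Single mice often lay at the edge for many members at once. TG5 was the lowest HSD17B1TG mouse in 17 of the 36 tested members and TG1 the highest in 16. WT4 was the lowest WT mouse in 12, among them 5 of the 8 members that were over 2-fold lower in HSD17B1TG. TG1 and WT4 were also the mice with the highest smooth muscle markers in their groups, and TG5 had the highest epithelium and the lowest stroma markers of all 10.

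The levels of several members followed these markers across the mice. Each of the 36 members was compared with the summed markers of epithelium, stroma and smooth muscle, 108 relations in all, on the log2 scale with 0.1 added to the FPKM of the member. The relations were chosen after the levels had been seen, and all points share their library and its scaling. *Slc38a1*, the glutamine carrier SNAT1, rose with the smooth muscle markers (Pearson's r = 0.933, permutation p = 0.0002, adjusted p = 0.00432, and Spearman's rho = 0.988, permutation p = 1e-05, adjusted p = 0.00108, n = 10 mice). Here 1e-05 is the smallest p that 100000 permutations can give. *Slc1a1* was lower where these markers were higher (r = -0.936, permutation p = 1e-05, adjusted p = 0.00108, and rho = -0.976, permutation p = 2e-05, adjusted p = 0.00108, n = 10). *Slc6a17* followed them as *Slc38a1* did (r = 0.931, permutation p = 0.0001, adjusted p = 0.0036, and rho = 0.952, permutation p = 0.00011, adjusted p = 0.00396, n = 10).

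These relations kept their direction without TG1 and WT3 and within genotypes. WT4, the WT mouse with the highest smooth muscle markers, stayed in both checks. Without TG1 and WT3, the mice farthest from the median of the smooth muscle markers, r was 0.864 for *Slc38a1*, -0.892 for *Slc1a1* and 0.858 for *Slc6a17*. With each mouse taken as its deviation from the mean of its genotype, r was 0.931, -0.953 and 0.933. Together with *Slc38a6*, *Slc6a8* and *Slc7a7*, 5 members had an r above 0.8 with the smooth muscle markers, which is 13.9% of the members tested against 3.11% of all genes tested, and 1 member had an r below -0.8, against 0.942% of all genes. *Slc6a8* had an r of 0.672 without TG1 and WT3, and the rho of *Slc7a7* had an adjusted permutation p of 0.0923.

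With the epithelium markers the closest relation was that of *Slc38a2* (r = 0.955, permutation p = 7e-05, adjusted p = 0.0036, and rho = 0.903, permutation p = 0.00071, adjusted p = 0.0146, n = 10 mice). Without WT3 and WT5 its r was 0.920, and within genotypes 0.946. *Slc1a5* followed the same markers (r = 0.853, permutation p = 0.00208, adjusted p = 0.0204, and rho = 0.867, permutation p = 0.00214, adjusted p = 0.0289, n = 10), with an r of 0.858 without WT3 and WT5 and of 0.798 within genotypes. In 8.33% of the members and 9.65% of all genes tested r was above 0.8 with the epithelium markers, so that such a relation was about as frequent among all genes. An r below -0.8 was found in 5 members (13.9%), against 7.22% of all genes, and was strongest in the cationic amino acid carrier *Slc7a2* (r = -0.885, permutation p = 0.00063, adjusted p = 0.0108, and rho = -0.855, permutation p = 0.00277, adjusted p = 0.0332, n = 10).

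The 4 members with an adjusted p-value under 0.05 in the comparison of genotypes were also set against the markers. Against the epithelium markers, r was -0.878 for *Slc1a3*, -0.809 for *Slc7a6*, -0.806 for *Slc7a8* and -0.791 for *Slc6a2*, and within genotypes it was -0.803, -0.658, -0.634 and -0.606. Without WT3 and WT5 it was -0.768, -0.736, -0.730 and -0.577. These genes were chosen because they were lower in HSD17B1TG, where the epithelium markers were higher, so part of each r over all mice comes from the choice, and no test is given. Against the stroma markers, r was 0.879 for *Slc7a8*, with 0.708 without TG3 and TG5 and 0.849 within genotypes, and rho was 0.721. For *Slc7a6*, *Slc1a3* and *Slc6a2* this r was 0.695, 0.592 and 0.289, and within genotypes 0.479, 0.251 and -0.295. Against the smooth muscle markers, r was -0.707 for *Slc6a2*, -0.319 for *Slc1a3*, -0.243 for *Slc7a6* and 0.0596 for *Slc7a8*. *Slc43a1* followed the stroma markers by both measures (r = 0.868, permutation p = 0.00103, adjusted p = 0.0139, and rho = 0.903, permutation p = 0.00081, adjusted p = 0.0146, n = 10 mice), with an r of 0.709 without TG3 and TG5 and of 0.812 within genotypes. An r above 0.8 with these markers was found in 2 members (5.56%), against 3.35% of all genes tested, and an r below -0.8 in 0, against 2.79%. All 5 epithelium markers had a higher fitted level in HSD17B1TG and none was called, whereas 4 of the 5 stroma markers had a lower one and *Pdgfra* was called down. The two-sided exact permutation test of the summed markers gave p = 0.0635 for epithelium, 0.0794 for stroma and 0.317 for smooth muscle (adjusted over 10 lists, 0.132, 0.132 and 0.454). The part of tissue makeup in the lower levels of the 4 carriers was not tested.

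**Figure D5:**
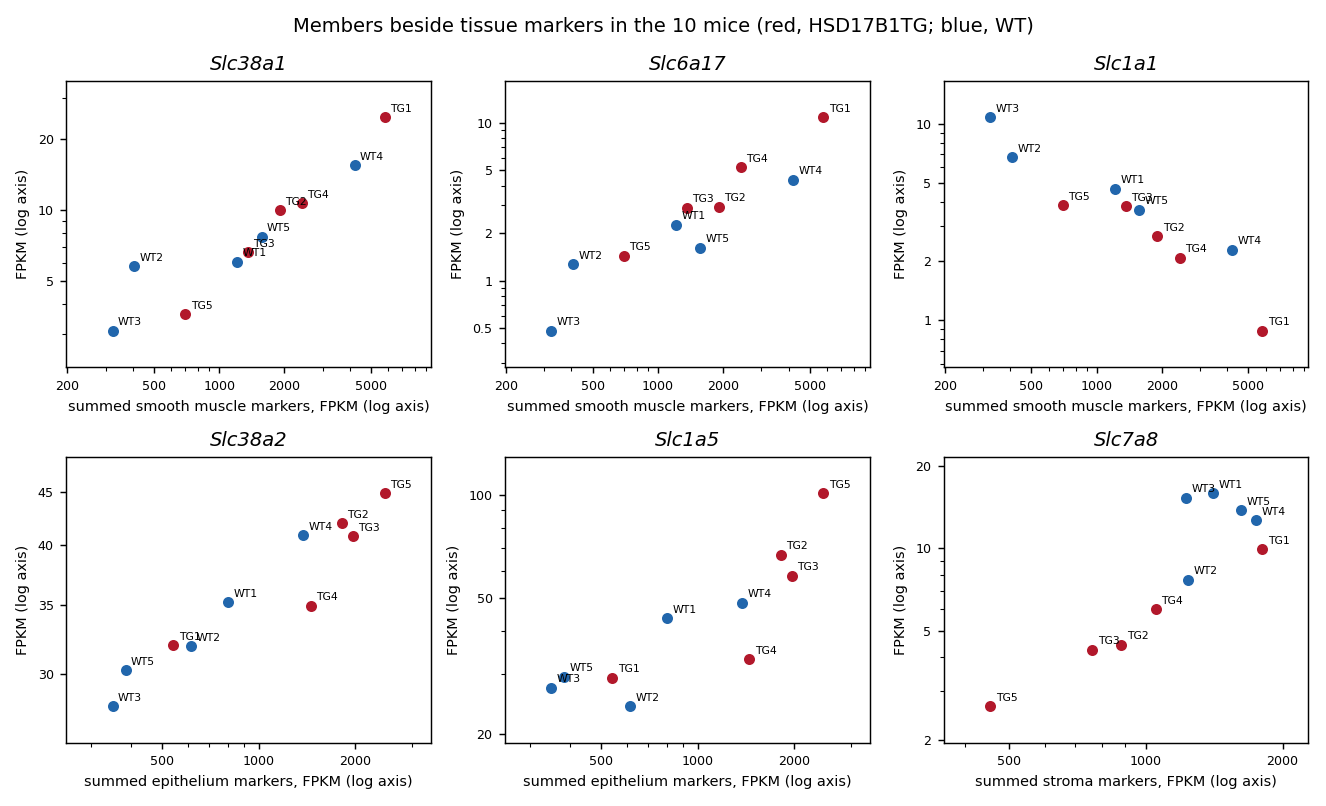
FPKM of 6 members (y axes, log scale) against the summed FPKM of tissue markers (x axes, log scale) in the 5 HSD17B1TG (red) and 5 WT (blue) mice. *Slc38a1* and *Slc6a17* are highest and *Slc1a1* lowest in TG1, the mouse with the most smooth muscle marker RNA (5792 FPKM), *Slc38a2* and *Slc1a5* are highest in TG5, with the most epithelium marker RNA (2469 FPKM), and *Slc7a8* is lowest in TG5, with the least stroma marker RNA (455 FPKM).

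No summed level of the markers of other cells passed the test after adjustment over the lists. The macrophage markers summed to 118.5 to 171 FPKM in HSD17B1TG and 80.8 to 118.6 in WT (p = 0.0159 in the exact permutation test, adjusted p = 0.0794), with *Cd68* the only one of 4 called, up. The neutrophil markers were at 2.57 to 11.1 FPKM against 0.412 to 3.43, with each of *S100a8*, *S100a9*, *Cxcr2* and *Retnlg* at 0 in some mice. Endothelium markers were at 14.2 to 55.5 against 35.3 to 90.0 FPKM, oviduct markers at 3.14 to 7.90 against 2.72 to 6.68, and erythroid markers at 21.2 to 99.9 against 31.5 to 147. The 4 general leucocyte markers summed to 36.2 to 66.3 against 32.6 to 62.9 FPKM, but went opposite ways. Of these, *Laptm5* was called up (log2 fold change 1.28), while *Ptprc*, *Cd52* and *Coro1a* had log2 fold changes of -1.08, -1.37 and -0.90 and did not pass the test. Adipocyte markers were at 0 in TG3, WT3 and WT5 and at 25.1 FPKM in TG4. The part of these cells in the levels of the carriers was not tested.

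Genes around the carriers were followed in 5 lists. The calls in them depended on single mice, and without TG4, TG5 or WT3 no gene of the lists was called in either direction (0 up and 0 down in edgeR). Of 14 tested carriers of amino acids from other families, none was called, against 2.16% up and 2.08% down over all genes, and the median log2 fold change was -0.08. The smallest p-values in that list belonged to *Slc25a13*, the mitochondrial aspartate and glutamate exchanger citrin, with a log2 fold change of 1.27 (SE 0.37, adjusted p = 0.0644 in edgeR), and to *Slc16a10*, the aromatic amino acid carrier TAT1, with -1.12 (SE 0.40, adjusted p = 0.109 in edgeR). Of 20 tested cytosolic tRNA synthetases none was called, and the median was -0.11. In lists of this size such shares leave room for no call at all, so nothing about the lists is read from it. *Yars* had an adjusted p-value of 0.0448 in edgeR at a log2 fold change of -0.40, and *Eprs* one of 0.148 at -0.49.

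Of 25 tested genes of the amino acid response driven by ATF4, 1 was called up and 2 down, against 2.16% and 2.08% of all genes, with a median log2 fold change of 0.19. The gene called up was *Stc2*, a secreted glycoprotein induced by cell stress, with 22.6 ± 8.42 FPKM in the HSD17B1TG mice and 6.95 ± 3.44 in the WT mice (SD, n = 5 each, log2 fold change 1.70, SE 0.38, adjusted p = 0.0337 in edgeR). The 2 called down were biosynthetic enzymes, *Phgdh* of serine (2.71 ± 1.33 against 15.9 ± 10.8 FPKM, log2 fold change -2.57, adjusted p = 0.0256 in edgeR) and *Pycr1* of proline (1.66 ± 0.702 against 4.40 ± 1.53 FPKM, log2 fold change -1.41, adjusted p = 0.0440 in edgeR). Of 34 genes of mTORC1 and its amino acid sensors, 1 was called, *Deptor*, an inhibitor of mTOR, up with a log2 fold change of 1.22 (SE 0.27, adjusted p = 0.0339 in edgeR), and the median was 0.05.

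Of 31 tested genes of glutamine, arginine, tryptophan and branched-chain amino acid metabolism, 1 was called up and 3 down, against the same shares of all genes, with a median of -0.21. *Asl*, which forms arginine, fell (log2 fold change -2.08, adjusted p = 0.0349 in edgeR), as did *Nos1*, the neuronal nitric oxide synthase (log2 fold change -1.60, adjusted p = 0.0256 in edgeR). *Azin2*, an antizyme inhibitor of the polyamine pathway, rose from 2.55 ± 0.453 FPKM in WT to 5.62 ± 1.28 in HSD17B1TG (SD, n = 5 each, log2 fold change 1.14, adjusted p = 0.0219 in edgeR).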

How the data were processed

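Uterine RNA libraries of 5 HSD17B1TG and 5 WT mice gave 150 bp read pairs, which the authors aligned to GRCm38 (Ensembl 94) with HISAT2 (version 2.0.5 in the submitters' notes). Their deposited table holds, per gene and mouse, the raw count, a signal that is the count divided by the DESeq2 size factor of the mouse, and FPKM, which rest on the gene length of the table and the same size factor. How reads were counted, and whether by strand, is not given in the sources used here. The fold change and p-value columns of the authors' own comparison, and the shorter gene table and the GO and KEGG tables deposited beside it, were not used.

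Samples were grouped by their labelled genotype, and TG1 to TG5 and WT1 to WT5 are numbered in ascending order of accession. Whether the libraries of a group came from separate litters or batches is not stated, so p-values measure only the spread between these samples. The count test was the quasi-likelihood F test of edgeR 4.0.16 (R 4.3.3) after filterByExpr and TMM scaling, with Benjamini-Hochberg adjustment over 16993 genes. The SE is the log2 fold change divided by the square root of F, and intervals cover 95%. Total counts lay between 14817228 and 23271988 per mouse, and limits of detection cover counting error only. Summed markers were tested on the log2 scale with the two-sided exact permutation test over 252 assignments of the mice. The gene tests were run on simulated data with the same dispersion for all genes and no differences in tissue makeup. These runs check the code and not the error rates at the spread of these mice.

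The members and lists were chosen with earlier results of these data known. Members named are those with an adjusted p-value under 0.05, those without overlap between groups, the 5 most abundant, the highest and lowest log2 fold change of each family, the heavy chains with their light chains, and *Slc6a14*. In the lists, called genes are named, or the 2 with the smallest p. Of these called genes, 1 is not reported here. Of the 52 members, 50 have the coordinates of GENCODE M21, in which 5 share over 10% of their exon bases with another gene. The 5 lists held 23, 26, 35, 36 and 38 symbols, of which 19, 26, 34, 35 and 20 were in the table. Alternatives were DESeq2 1.42.0, size factor (RLE) normalization, no filter, limma 3.58.1 with voom weights or on FPKM (log2 after adding 1 or 0.1), the adjusted p-value alone, and each mouse left out.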

Additional observations from a re-analysis of the deposited data

Results flagged for a closer look

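Outliers were looked for in 66 groups of 5 mice, and in 7 of them a single mouse stood apart, its gap to the nearest other mouse taking more than 0.71 of the whole range of the group. Chance alone gives about 1 such group in 20 if values are independent and normally distributed. These groups are FPKM values and sums that share mice, and their chance rate was not determined. *Slc38a10* stood at 23.8 FPKM in WT1 and at 21.2 to 21.8 in the other WT mice, a gap of 0.771 of the range. *Slc3a1* was at 0.699 FPKM in TG4 and at 0.115 to 0.249 in the other HSD17B1TG mice, a gap of 0.770. *Slc7a11* was at 2.93 FPKM in WT2 and at 0.224 to 0.981 in the other WT mice, a gap of 0.720.

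The other 4 groups were sums of markers. The neutrophil markers summed to 11.1 FPKM in TG1 and to 2.57 to 2.96 in the other HSD17B1TG mice, a gap of 0.954 of the range, and to 3.43 FPKM in WT2 and 0.412 to 1.09 in the other WT mice, a gap of 0.775. The adipocyte markers reached 25.1 FPKM in TG4 and 0 to 2.85 in the other HSD17B1TG mice, a gap of 0.886. The sum of *Esr1*, *Pgr*, *Hoxa10* and *Hoxa11* was 171 FPKM in TG1 and 90.5 to 106.6 in the other HSD17B1TG mice, a gap of 0.8002.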

How the results depend on the processing

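The count of members called up was 0 under each alternative run, and the median log2 fold change of the tested members stayed negative, between -0.27 and -0.09. The number called down, 2 in edgeR, was 1 with voom weights and on log2(FPKM + 1) in limma (*Slc7a8* each time), 4 by the adjusted p-value alone, and 0 to 2 when single mice were left out. It was 0 without TG2, TG4, TG5, WT2, WT3 or WT5, 1 (*Slc6a2*) without TG3 or WT1, and 2 without TG1 or WT4. *Slc6a2*, *Slc1a3*, *Slc7a6* and *Slc7a8* kept their sign in 17 of 17 alternatives. DESeq2 gave them fold changes of -4.33, -1.59, -0.64 and -1.26 on the log2 scale (adjusted p = 1.32e-06, 0.000830, 0.000956 and 0.00498 in the same order). In edgeR, when single mice were left out, their adjusted p-value stayed under 0.05 in 4, 3, 3 and 2 of 10 fits.

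Over all genes, the counts called up and down, 367 and 354 in edgeR, were 921 and 657 with DESeq2, 1083 and 665 with voom weights, 568 up by the adjusted p-value alone and 228 down on log2(FPKM + 1). Leaving out single mice gave 38 to 888 up and 27 to 666 down. In the 5 lists outside the families, 3 genes were called up and 5 down in edgeR, 10 were up with DESeq2, 7 up with voom weights and 3 down on log2(FPKM + 1), with 0 to 7 up and 0 to 7 down when single mice were left out. Without TG1 and WT4 together, an alternative chosen after seeing the data because these mice had the highest smooth muscle markers, 1141 genes were called up and 879 down, with 9 up and 9 down in the lists and 2 members down.

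The sign turned in *Slc6a14*, to 0.14 with voom weights and 0.32 without WT3 (range over single mice left out -0.56 to 0.32), and in *Slc43a3*, to 0.003 without TG2, 0.14 without TG5 and 0.003 without WT3 (range -0.24 to 0.14). *Slc6a6* passed an adjusted p-value of 0.05 with voom weights (-0.50, adjusted p = 0.0324), without WT4 (-0.61, 0.0181 in edgeR) and without TG1 and WT4 (-0.59, 0.0226 in edgeR). The cause of these changes was not tested. No paired analysis was possible because the labels name no litter, batch or pair, and the replicate numbers only follow accession order.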
